A study of Mus musculus with 16 samples.

Results

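Bone-marrow derived macrophages labelled as pretreated were compared with naive macrophages at the 3 h time point of a stimulation with interferon, on 2 arrays per group. These 4 of the 16 arrays of the study were chosen by their group and time labels, and both groups lay in the same array set of 8, called array set 2. The treatment text names interferon-gamma for the differentiated cells without saying at which step, and the titles of the pretreated arrays carry a tag for interferon given beforehand. How much interferon was given, for how long and with what interval before the time course is not given in the sources used here. Pretreated and naive cells alike came from H3.3-HA knock-in mice, whose histone H3.3 carries an HA tag, and were grown with L-cell conditioned medium in DMEM with FBS. No group without the knock-in and no cells left unstimulated for 3 h were analysed here. Whether the arrays of a group came from different cultures or mice is not stated, and the p-values therefore reflect array-to-array spread that may be technical.

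Interferon-gamma is the cytokine with which T cells and natural killer cells activate macrophages. It acts through JAK kinases and gamma-activated sites (GAS) in DNA, and through interferon regulatory factors such as Irf1, which bind interferon-stimulated response elements (ISRE). The genes it induces in macrophages include guanylate-binding proteins and other GTPases that attack intracellular pathogens, the chemokine Cxcl9, and the machinery that presents antigen on MHC class I and class II.

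Values are log2 intensities, each difference is pretreated minus naive on the log2 scale, and the value after ± is its SE. The SE comes from 1 limma fit to all 16 arrays, so that it also holds spread between arrays of other times. Array medians at 3 h were 6.94 and 6.997 in pretreated cells and 6.94 and 6.95 in naive cells. Of 10 macrophage markers, 9 were measured. Their levels were 10.48 to 13.85 in pretreated cells and 10.93 to 13.86 in naive cells, so the labelled cell type was borne out by its markers, and none of the 9 passed the test. Lists of markers of 9 other cell types, with 53 genes measured, held no gene past the threshold either. All 10 neutrophil markers and 5 of 6 natural killer cell markers had means under 6.5 in both groups, a level below which a gene was not shown to stand above background. Such means were found for 4 of 5 mast cell or basophil, 5 of 9 T cell, 3 of 5 B cell, 3 of 6 fibroblast, 2 of 6 dendritic cell, 1 of 4 endothelial cell and both erythroid markers. The highest array levels were 10.13 in pretreated cells and 10.43 in naive cells among T cell markers, and 8.81 in pretreated cells and 9.06 in naive cells among B cell markers. They were 8.44 in pretreated cells and 8.08 in naive cells among endothelial markers, and 8.12 in pretreated cells and 7.81 in naive cells among fibroblast markers. The part of other cells in the results was not tested. The dendritic cell marker Clec9a, a lectin, was at 7.98 and 7.71 in pretreated cells, against 5.81 and 6.09 in naive cells. Its difference of 1.90 ± 0.39 had an adjusted p of 0.297 in the limma fit (0.0308 with the 4-array block described below). Both naive arrays lay under 6.5, so the size of that difference is uncertain. The other 5 dendritic cell markers had differences between -0.08 and 0.12.

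At 3 h few genes passed the test between the groups, and the count depended on the model. With a term for the 4-array block described below, limma called 33 genes higher and 43 lower at an adjusted p under 0.05. The main fit has no such term. In it 2 of 19938 genes were higher and 1 was lower in pretreated cells at that threshold (limma, Benjamini-Hochberg over all genes). That is 0.01% of genes higher, 0.00502% lower and 0.015% in all. The median difference was 0.001, and 66 genes (0.331%) differed by at least 2-fold in either direction. At an unadjusted p under 0.05 there were 738 genes, or 3.7%. The 2 higher genes of the main fit were Aif1, which encodes an actin-binding protein of macrophages, and H2-Q5, a class I heavy chain gene of the Q region. The lower gene was Cbr2, a carbonyl reductase that is used as a marker of alternatively activated macrophages.

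The promoters of Aif1 and Cbr2 are shown because the 3 h result turns on the called genes, of which H2-Q5 is named only. They run from 250 bases before the transcript start to 50 after it, in RefSeq annotation of GRCm38.p6, and are written 5′ to 3′ on the strand of the gene. That of Aif1 is chr17:35176003-35176302 on the minus strand, and that of Cbr2 is chr11:120731972-120732271 on the minus strand. Capitals mark a match to the ISRE core, searched as GAAANNGAAA and, on the other strand, TTTCNNTTTC.
Aif1: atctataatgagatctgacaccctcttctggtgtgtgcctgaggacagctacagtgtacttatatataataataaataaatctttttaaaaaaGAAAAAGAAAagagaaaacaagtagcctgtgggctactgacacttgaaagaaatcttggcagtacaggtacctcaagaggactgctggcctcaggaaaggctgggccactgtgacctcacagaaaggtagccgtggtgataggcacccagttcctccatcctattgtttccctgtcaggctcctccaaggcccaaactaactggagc
Cbr2: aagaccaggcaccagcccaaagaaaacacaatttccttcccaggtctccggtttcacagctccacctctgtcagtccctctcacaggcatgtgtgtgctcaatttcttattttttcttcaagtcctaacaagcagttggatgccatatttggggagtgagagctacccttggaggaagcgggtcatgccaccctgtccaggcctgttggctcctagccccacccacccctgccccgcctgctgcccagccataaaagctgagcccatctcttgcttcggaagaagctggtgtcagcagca
In the Aif1 window 1 ISRE core match begins 157 bases before the start, and 3.44% of 32851 RefSeq promoter windows hold such a match. The Cbr2 window held no match to the ISRE core, to the GAS palindrome TTCNNNGAA (present in 8.3% of windows) or to the kappa B letters GGGNNTTTCC or GGAAANNCCC (1.63%). A match is a run of letters and not a measured binding site.

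Cbr2 had levels of 8.19 and 8.11 in pretreated cells, against 10.45 and 10.75 in naive cells. Both pretreated arrays lay more than 2 log2 units below both naive arrays. The difference was -2.45 ± 0.19 (95% interval -2.85 to -2.04, adjusted p = 0.000264 in the limma fit), a level 5.46-fold lower in pretreated cells. Before the stimulation the difference was already there, with -2.24 at 0 h in array set 2 and -1.53 on the separate 0 h arrays of set 1. At 6 h it was -1.11 (adjusted p = 0.0235). Neither the change of this difference between 0 h and 3 h (adjusted p = 1.0) nor that between 6 h and 3 h (adjusted p = 0.256) passed the test in the limma fit.

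Aif1 had levels of 9.79 and 9.73 in pretreated cells, against 8.15 and 8.40 in naive cells. The groups did not overlap, and the difference was 1.48 ± 0.19 (95% interval 1.07 to 1.89, adjusted p = 0.0387 in the limma fit), or 2.80-fold. It was 1.91 at 0 h in set 2 and 1.09 at 0 h in set 1. At 6 h it was 0.45 (adjusted p = 0.343). H2-Q5 had levels of 10.61 and 10.45 in pretreated cells, against 9.61 and 9.34 in naive cells. Its difference of 1.05 ± 0.14 (95% interval 0.75 to 1.35, adjusted p = 0.0407) was 2.07-fold. It was 1.10 at 0 h in each array set and 0.24 at 6 h. H2-Q5 has closely similar neighbours among the Q region genes, so that its probes may also read them. For neither gene did the difference at 3 h pass the test against that at 0 h (adjusted p = 1.0 for both) or against that at 6 h (adjusted p = 0.354 for both).

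**Figure D1:**
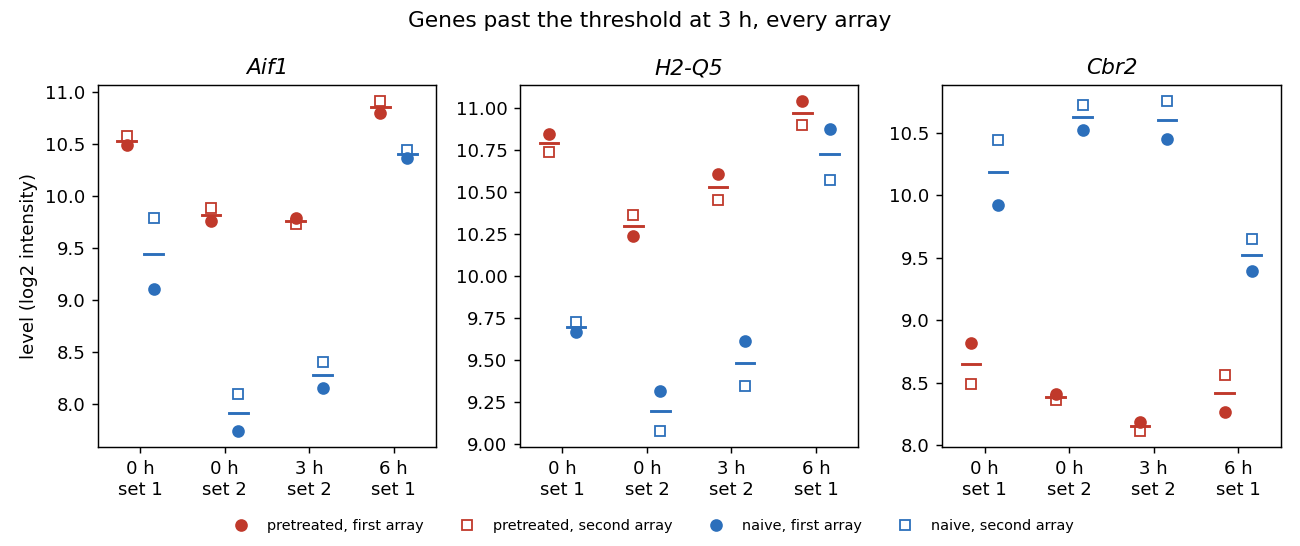
Log2 intensity (vertical axis) of Aif1, H2-Q5 and Cbr2 on every array at 0 h (both array sets), 3 h and 6 h, with pretreated arrays in red left of naive arrays in blue and horizontal lines at the mean of 2 arrays. At 3 h the pretreated arrays of Aif1 (9.79 and 9.73) and H2-Q5 (10.61 and 10.45) lie above the naive arrays and those of Cbr2 (8.19 and 8.11) lie below them, as they do at 0 h in both sets.

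The 3 calls rest on few arrays. Cbr2 passed under every alternative run, including the omission of any of the 4 arrays at 3 h. Without naive 3 h replicate 1, pretreated 3 h replicate 1 or pretreated 3 h replicate 2 it was the only gene that passed. Aif1 and H2-Q5 each lost the call when any 1 of the 4 arrays was omitted, at adjusted p up to 0.516 for Aif1 and 0.539 for H2-Q5. By title number each array set falls into 2 blocks of 4 arrays, 1 of each group. A term for this block moved the count the other way, to 33 higher and 43 lower genes, among them H2-Eb1, H2-Ab1 and Upp1, which are described below. Next after the called genes by p-value, chosen after their values were seen, were Il12rb1, a receptor subunit shared by interleukins 12 and 23, and Upp1, a uridine phosphorylase. Il12rb1 had levels of 9.37 and 9.36 in pretreated cells, against 8.01 and 7.93 in naive cells (difference 1.40 ± 0.21, adjusted p = 0.116). With the 4-array block Il12rb1 passed the limma test (adjusted p = 0.0111).

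The genes that pretreatment had left higher at 0 h differed less at 3 h. At 0 h in array set 2, 88 genes were higher (0.441% of genes) and 5 lower (0.0251%) in pretreated cells. Of the 88, 2 also passed as higher at 3 h in the main fit (2.27%), Aif1 and H2-Q5. With the 4-array block more of the 88 passed, among them AW112010 (limma adjusted p = 0.0489). How many of the 88 passed with that block was not counted. The median difference of the 88 was 0.29 at 3 h, against 1.501 on the 0 h arrays that chose them, 0.99 on the separate 0 h arrays of set 1 and -0.01 at 6 h. At 3 h the 95% interval lay within 1 log2 unit of 0 for 60 of the 88 (68.2%), against 95.9% of all genes. A remainder of the 0 h difference was visible in the arrays: 71 of the 88 had a positive difference, and in 58 (65.9%) both pretreated arrays stood above both naive arrays, as they did in 13.0% of all genes. In set 1 at 0 h 45 genes passed as higher (0.226%) and 9 as lower (0.0451%). The 0 h total of 93 was 61 without pretreated 0 h replicate 4.

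**Figure D2:**
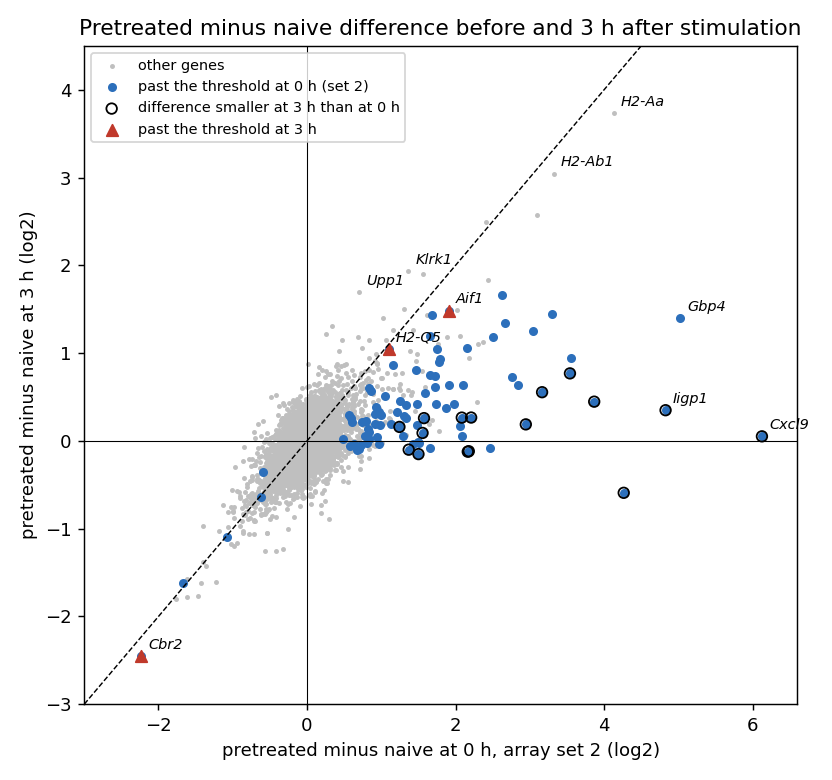
Difference of pretreated minus naive cells (log2) at 0 h in array set 2 (horizontal) and at 3 h (vertical), 1 point per gene, with the dashed line at equal differences. Most of the 88 genes higher at 0 h (blue) lie well below the dashed line, with a median of 0.29 at 3 h, while the 5 lower at 0 h, the 3 genes past the threshold at 3 h (red triangles) and H2-Aa and H2-Ab1 lie near the dashed line.

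For 16 genes (0.0802%) the difference at 3 h was smaller than that at 0 h by the test of the change itself, and for no gene was it larger at an adjusted p under 0.05 (330 genes passed at an unadjusted p under 0.05 in either direction). All 16 were among the 88, but the 0 h arrays that chose the 88 are also part of this test. The overlap is therefore no independent support. The differences of the 16 at 3 h ran from -0.59 to 0.77. For 13 of the 16 the 95% interval lay within 1 log2 unit of 0. At 0 h their differences had run from 1.24 to 6.13. All 16 stood higher at 3 h than at 0 h in naive and in pretreated cells. That rise passed the test for all 16 in naive cells and for 13 in pretreated cells, on arrays that these tests share. Levels at 3 h were means of 10.63 to 13.47 in pretreated cells and 10.37 to 13.30 in naive cells, and the brightest feature of these 4 arrays lay at 14.36 to 14.42. Whether the upper end of the intensity scale narrowed the differences was not tested.

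Cxcl9, a chemokine that attracts T cells through the receptor CXCR3, was at 13.30 and 13.41 in pretreated cells at 3 h, against 13.39 and 13.22 in naive cells. These levels overlapped, with a difference of 0.05 ± 0.17 (95% interval -0.31 to 0.42). At 0 h the levels were 11.92 and 12.30 in pretreated cells, against 5.99 and 5.98 in naive cells, which is under the limit of 6.5. The difference at 3 h was smaller than at 0 h by 6.07 ± 0.24 (adjusted p = 1.09e-07 in the limma fit). Iigp1, an immunity-related GTPase, was at 13.04 and 12.98 in pretreated cells at 3 h, against 12.66 and 12.67 in naive cells (difference 0.35 ± 0.27). At 0 h it was at 10.88 and 11.31 in pretreated cells, against 6.17 and 6.37 in naive cells. Irf1 was at 12.93 and 12.85 in pretreated cells at 3 h, against 13.03 and 13.05 in naive cells, so that both pretreated arrays lay below both naive arrays by a small margin (difference -0.15 ± 0.15). Among the other members were the GTPases Gbp3 (-0.12 ± 0.26), Gm12250 (-0.12 ± 0.16) and Gm4951 (0.45 ± 0.21), and the itaconate-making enzyme Acod1 (0.19 ± 0.28). The nucleic acid sensor Zbp1 had a difference of 0.55 ± 0.21 at 3 h, and the p200 family member Ifi205 had 0.77 ± 0.16. Both Ifi205 arrays of pretreated cells, 13.06 and 13.10, stayed above those of naive cells, 12.15 and 12.47, and the difference at 3 h did not pass (adjusted p = 0.346). The class I transactivator Nlrc5 (-0.10 ± 0.14), the peptide transporter Tap1 (0.09 ± 0.12), the immunoproteasome subunit Psmb9 (0.16 ± 0.10), Tapbpl (0.26 ± 0.15), the Fc receptor Fcgr4 (0.27 ± 0.20), the antiviral Ifit2 (0.27 ± 0.20) and BC023105 (-0.59 ± 0.38) made up the rest. Omitting naive 3 h replicate 2 or pretreated 3 h replicate 1 left 10 of such genes, omitting pretreated 0 h replicate 4 left 9 and omitting pretreated 3 h replicate 2 left 8.

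**Figure D3:**
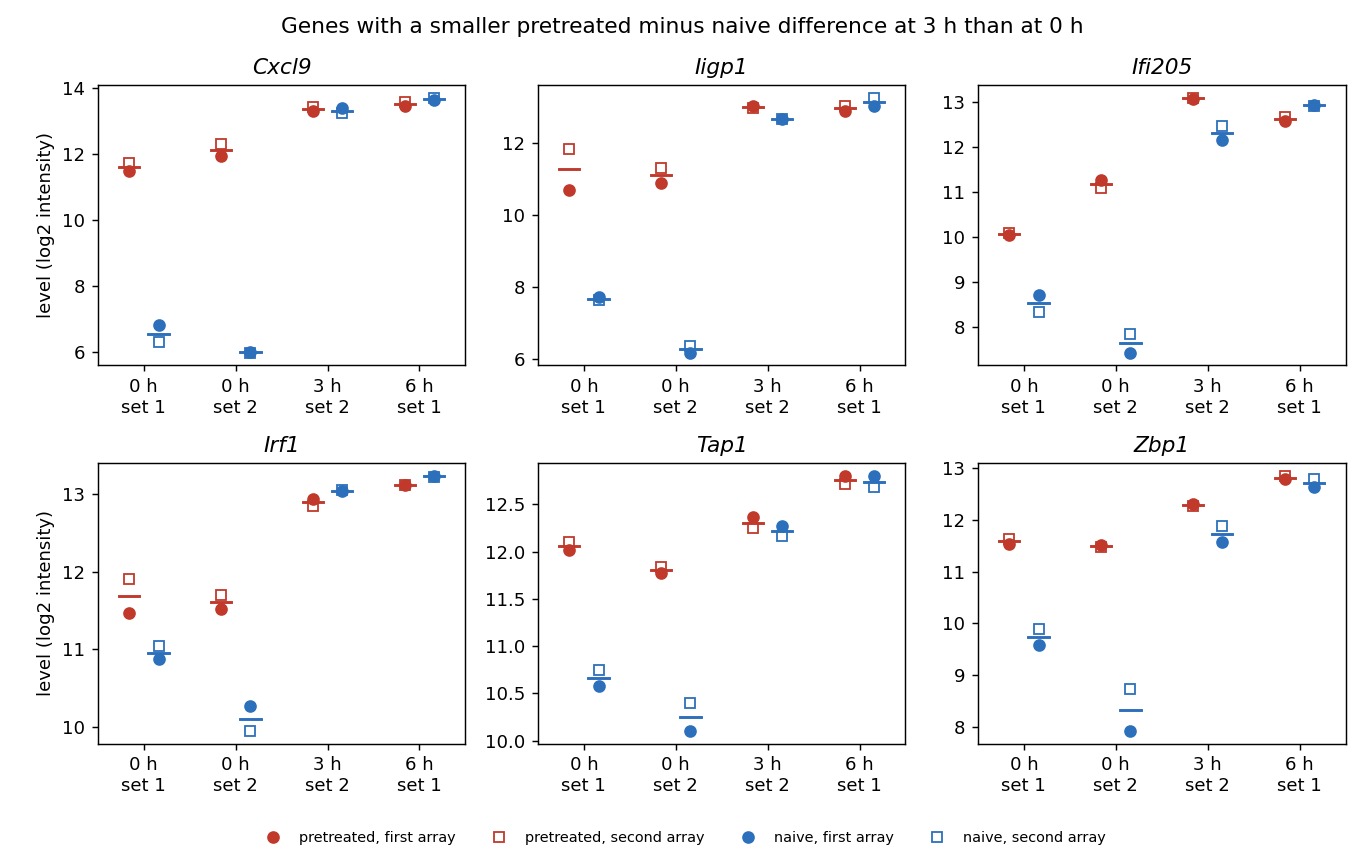
Log2 intensity (vertical axis) on every array of 6 of the 16 genes whose difference was smaller at 3 h than at 0 h, drawn as in the plot of the called genes. At 0 h in set 2 pretreated arrays lie above naive arrays by 1.501 (Irf1) to 6.13 (Cxcl9) on average, and at 3 h the means differ by -0.15 (Irf1) to 0.77 (Ifi205).

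The promoters of Cxcl9, Irf1 and Gbp3 are shown for these genes, as a chemokine, a transcription factor and a GTPase whose groups were close to level at 3 h. RefSeq windows on GRCm38.p6 are chr5:92328030-92328329 on the minus strand for Cxcl9, chr11:53769764-53770063 on the plus strand for Irf1 and chr3:142559794-142560093 on the plus strand for Gbp3. Capitals mark the GAS palindrome in Irf1 and 2 overlapping ISRE core matches in Gbp3.
Cxcl9: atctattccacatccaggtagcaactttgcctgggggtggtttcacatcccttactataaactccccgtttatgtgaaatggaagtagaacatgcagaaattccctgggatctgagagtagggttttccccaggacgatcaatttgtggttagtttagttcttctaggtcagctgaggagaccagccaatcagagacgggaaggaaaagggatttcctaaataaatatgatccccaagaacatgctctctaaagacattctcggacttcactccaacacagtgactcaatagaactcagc
Irf1: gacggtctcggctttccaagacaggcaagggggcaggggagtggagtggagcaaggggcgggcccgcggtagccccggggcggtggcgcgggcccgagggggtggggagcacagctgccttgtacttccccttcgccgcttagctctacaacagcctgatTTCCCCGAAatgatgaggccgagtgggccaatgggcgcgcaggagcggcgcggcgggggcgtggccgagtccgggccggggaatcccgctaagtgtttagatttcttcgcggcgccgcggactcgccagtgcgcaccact
Gbp3: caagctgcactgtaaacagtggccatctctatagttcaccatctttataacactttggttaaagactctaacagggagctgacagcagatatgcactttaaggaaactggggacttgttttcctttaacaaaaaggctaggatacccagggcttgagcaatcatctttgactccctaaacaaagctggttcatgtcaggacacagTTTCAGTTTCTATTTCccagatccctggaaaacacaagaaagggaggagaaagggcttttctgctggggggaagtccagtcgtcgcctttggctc
The GAS match of Irf1, TTCCCCGAA, begins 90 bases before the start. The Gbp3 matches begin 45 and 39 bases before it, and the Cxcl9 window held none of the 3 motifs as spelled above. Other spellings of these elements were not searched. Of the 16 genes 10 had a promoter entry, with 13 windows in all. Counting a match in any window of a gene, 3 held a GAS match, 4 an ISRE core match and 0 a kappa B match. The shares given above for RefSeq promoters are per window. Irf1, Gbp3 and Ifit2 each have a further window, not shown, which held none of the 3 motifs.

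The 5 genes that were lower at 0 h stayed on the lower side at 3 h. In all 5 both pretreated arrays lay below both naive arrays, against 14.6% of all genes, with a median difference of -1.09 at 3 h and -0.64 on the separate 0 h arrays of set 1. Cbr2 alone passed at 3 h in the main fit. Ednrb, an endothelin receptor, was at 8.82 and 8.72 in pretreated cells, against 10.33 and 10.45 in naive cells (difference -1.62 ± 0.32, adjusted p = 0.27). The chemokine precursor Ppbp had a difference of -1.09 ± 0.19, the median of the 5, but its means were under 6.5 in both groups (5.03 and 5.34 in pretreated cells, against 5.96 and 6.5995 in naive cells). Pam, a peptide-amidating enzyme, had -0.64 ± 0.12, and Marveld1 had -0.35 ± 0.11.

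Groups of genes were described by the lists named in the plot of list members. None of their members passed at 3 h but Cbr2, so what follows gives values and no called change. With the 4-array block 33 of all 19938 genes passed the limma test as higher in pretreated cells and 43 as lower. Among these were 22 further list members, 15 higher and 7 lower. The higher members were H2-Eb1, H2-Ab1, H2-Aa, H2-DMa, H2-M3, Ccl5, Axl, Vegfa, Upp1, Il18bp, Ccne1, Itgb7, Klrk1, Tlr9 and Tlr13, and the lower ones Cd5l, Ms4a4a, Clec10a, Mrc1, Egr2, Hpgd and Ifi27. Over all genes 13.0% had both pretreated arrays above both naive arrays and 14.6% had them below, and the median difference was 0.001.

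MHC class II presentation held the 2 largest positive differences of all genes at 3 h, those of H2-Aa and H2-Ab1. All 12 measured members had a positive difference, with a median of 0.68, and in 6 both pretreated arrays stood above both naive arrays. The class II chain H2-Aa was at 12.28 and 10.81 in pretreated cells, against 9.88 and 5.73 in naive cells. H2-Ab1, its partner chain, was at 12.43 and 11.04 in pretreated cells, against 10.08 and 7.2998 in naive cells. In both genes the first array of each group was the higher one, by more than 1 log2 unit in pretreated cells and more than 2 in naive cells. The differences of 3.74 ± 1.38 for H2-Aa (adjusted p = 1.0) and 3.04 ± 0.90 for H2-Ab1 (adjusted p = 0.882) had large errors. The second naive array of H2-Aa lay under 6.5, so the size and rank of the H2-Aa difference are uncertain. With the 4-array block, which takes out a shift shared by the arrays of a block, the SE was 0.65 for H2-Aa (adjusted p = 0.0396) and 0.31 for H2-Ab1 (adjusted p = 0.00275). H2-Eb1 had a difference of 2.49 ± 0.70, the invariant chain Cd74 2.57 ± 0.96, and Ciita, the transactivator of class II genes, 1.27 ± 0.54. The peptide loading factor H2-DMa, at 12.08 and 11.61 in pretreated cells, against 11.08 and 10.52 in naive cells, had a difference of 1.05 ± 0.19 (adjusted p = 0.168). The median of 0.68 at 3 h stood beside 0.83 at 0 h in set 2, 0.91 at 0 h in set 1 and 0.47 at 6 h. No class II gene passed the test of the change between 0 h and 3 h.

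**Figure D4:**
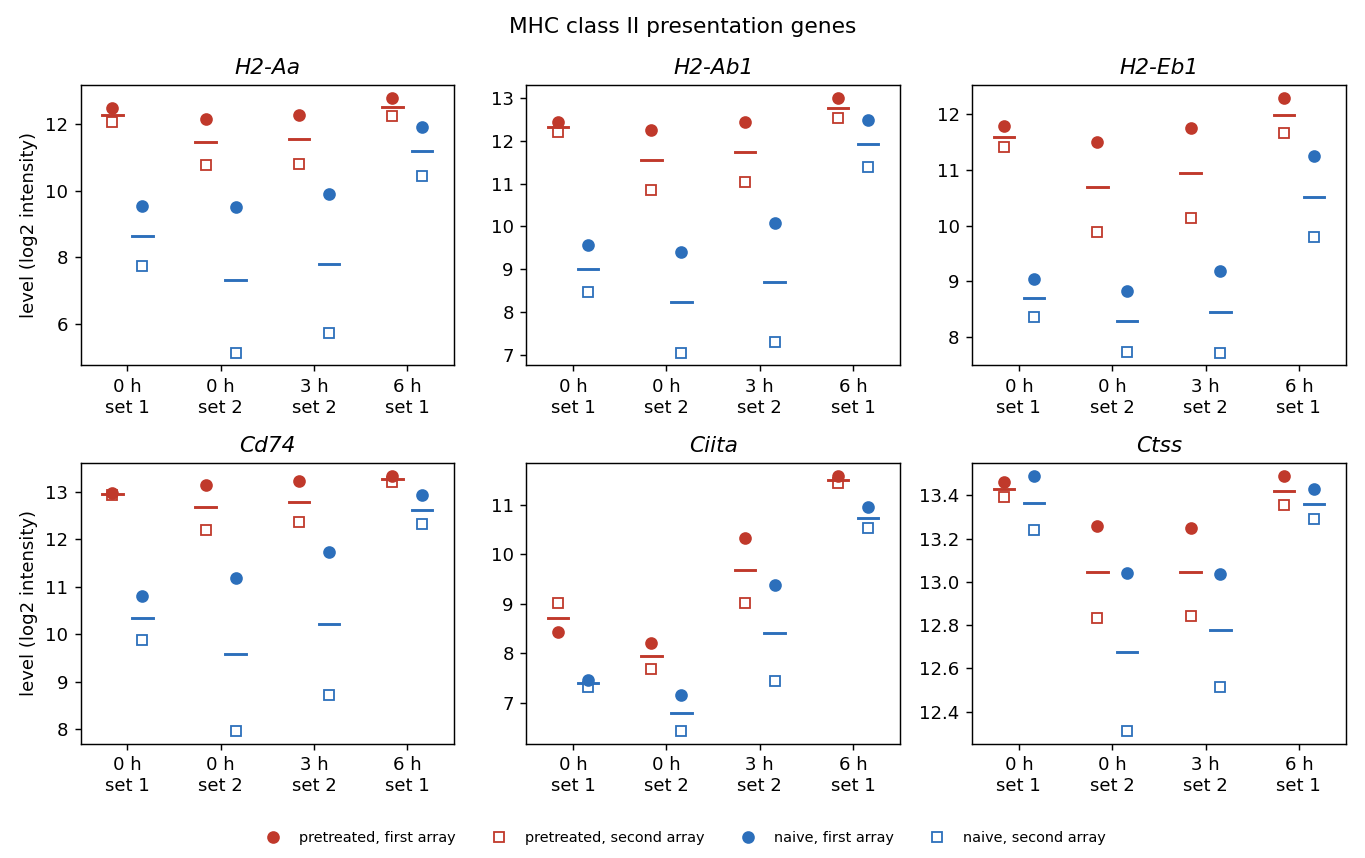
Log2 intensity (vertical axis) on every array of 6 class II presentation genes, drawn as in the plot of the called genes. At 3 h H2-Aa is at 12.28 and 10.81 in pretreated cells and 9.88 and 5.73 in naive cells, with the first array (filled circle) above the second (open square) in both groups.

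MHC class I presentation differed less. Of 17 members 16 had a positive difference and 12 had both pretreated arrays above both naive arrays, with a median of 0.26 at 3 h, against 0.87 at 0 h in set 2. H2-Q4, a further Q region heavy chain, had a difference of 0.75 ± 0.20, H2-M3, which presents formylated peptides, 0.69 ± 0.17, and the peptide trimming enzyme Erap1 0.57 ± 0.16. The immunoproteasome subunits Psmb8 (0.45 ± 0.13) and Psmb10 (0.40 ± 0.12) followed.

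The interferon-inducible GTPases had a median of 0.35 over 11 members at 3 h, against 2.18 at 0 h in set 2, and 6 had both pretreated arrays above both naive arrays. Gbp4 was at 13.03 and 12.97 in pretreated cells, against 11.79 and 11.40 in naive cells (difference 1.40 ± 0.42, adjusted p = 0.882). Its 0 h difference in set 2 was 5.02. Gbp2b was at 9.07 and 8.99 in pretreated cells, against 7.66 and 7.54 in naive cells (1.43 ± 0.40), and at 0 h its difference was 1.61. Gbp8 and Gbp11 had differences of 1.13 ± 0.47 and 1.10 ± 0.35. Members of the guanylate-binding family are alike in sequence, so that probes may read more than 1 of them.

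The 41 type I interferon-stimulated genes, most of which restrict viruses, had a median of 0.09 at 3 h, and 15 had both pretreated arrays above both naive arrays. Oasl1, which restrains translation of Irf7, was at 11.09 and 11.61 in pretreated cells, against 9.17 and 10.53 in naive cells (1.495 ± 0.40). Mx1, an antiviral GTPase, had 1.10 ± 0.49 and Ifit3b 0.93 ± 0.32. The 15 members of the p200 family and the Schlafens had a median of 0.24, with Slfn1 at 0.94 ± 0.48 and Ifi213 at 0.94 ± 0.31. For Ifi213 the 0 h difference in set 2 was 3.55.

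Signalling genes varied by group. The 12 interferon receptors, JAK kinases and STATs measured had differences from -0.32 to 0.11, and for 11 of them the 95% interval lay within 1 log2 unit of 0. Of 12 interferon regulatory and Batf factors 7 had a negative difference, and the range was -0.67 to 0.42. Irf4, a lymphoid and myeloid regulatory factor, was at 6.09 and 5.88 in pretreated cells, against 7.02 and 6.30 in naive cells (-0.67 ± 0.30), with the pretreated arrays under 6.5. Irf7, the regulator of type I interferon genes, had 0.42 ± 0.20, against 1.74 at 0 h. Of 11 feedback inhibitors 8 had a negative difference, and 8 had an interval within 1 log2 unit of 0. Socs3, which blocks cytokine receptor signalling, was at 10.48 and 10.60 in pretreated cells, against 11.40 and 11.47 in naive cells (-0.89 ± 0.21, adjusted p = 0.474). Cish, of the same family, was at 8.90 and 9.0007 in pretreated cells, against 9.52 and 9.83 in naive cells (-0.72 ± 0.17, adjusted p = 0.504). Both groups of arrays were apart in both genes, and their 0 h differences in set 2 were 0.29 and 0.05.

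Chemokines and cytokines varied by gene. Of 22 chemokines 18 had a positive difference, with a median of 0.19. Ccl5, a chemokine that attracts T cells and monocytes, was at 11.57 and 10.90 in pretreated cells, against 10.25 and 9.54 in naive cells (1.34 ± 0.40), while its 0 h difference in set 2 was 2.66. Among 22 inflammatory cytokine genes the interleukin 18 antagonist Il18bp had 0.90 ± 0.20 and Il10, an anti-inflammatory cytokine, 0.64 ± 0.35. The Toll-like receptor Tlr13, which senses bacterial ribosomal RNA, was at 12.24 and 12.11 in pretreated cells, against 11.45 and 11.28 in naive cells (0.81 ± 0.15, adjusted p = 0.168), with 0.20 at 0 h in set 2. The NF-kB subunits and inhibitors had a median of 0.01 at 3 h.

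Effector genes included some of the larger differences. Upp1 was at 10.74 and 10.88 in pretreated cells, against 9.38 and 8.86 in naive cells (1.69 ± 0.27, adjusted p = 0.134), and its 0 h difference in set 2 was 0.70. The nitric oxide synthase Nos2 was at 9.57 and 9.48 in pretreated cells, against 8.07 and 8.37 in naive cells (1.31 ± 0.48), with 0.34 at 0 h. The prostaglandin synthase Ptgs2 had 1.15 ± 0.50 and Hpgd, which degrades prostaglandins, -1.05 ± 0.50. The change from 0 h to 3 h passed in none of these 4. Klrk1, the receptor NKG2D, was at 9.31 and 9.43 in pretreated cells, against 7.18 and 7.69 in naive cells (1.93 ± 0.40, adjusted p = 0.297). The costimulator Cd86 had 0.62 ± 0.24 and the receptor Slamf8 0.73 ± 0.30.

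Among 23 alternative activation genes 10 had both pretreated arrays below both naive arrays, and 1, Cbr2, passed. The galactose lectin Clec10a was at 9.48 and 8.75 in pretreated cells, against 10.58 and 10.15 in naive cells (-1.25 ± 0.42). The mannose receptor Mrc1 was at 11.58 and 11.75 in pretreated cells, against 12.27 and 12.48 in naive cells (-0.71 ± 0.20). Gas6, a bridge between dying cells and phagocytes, had -0.67 ± 0.15. Among 24 macrophage identity genes Cd5l, a secreted protein of tissue macrophages, had -1.61 ± 0.64 and its 0 h difference in set 2 was -1.22. The receptor tyrosine kinase Axl, which takes part in the uptake of dying cells, was at 10.85 and 9.82 in pretreated cells, against 9.95 and 8.72 in naive cells (1.01 ± 0.57). In the Ms4a family of membrane proteins Ms4a4a had -1.81 ± 0.62 and Ms4a4c 1.19 ± 0.28.

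Sterol metabolism leaned one way. Of 22 members 20 had a negative difference and 17 had both pretreated arrays below both naive arrays, with a median of -0.46 at 3 h. The median was -0.38 at 0 h in set 2, -0.19 at 0 h in set 1 and -0.47 at 6 h. Cyp51, which demethylates lanosterol, was at 7.89 and 7.21 in pretreated cells, against 8.71 and 8.49 in naive cells (-1.05 ± 0.59, adjusted p = 1.0). The synthase Hmgcs1 had -0.81 ± 0.40 and the epoxidase Sqle -0.78 ± 0.66. Of these 22 genes 8 had an interval within 1 log2 unit of 0.

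DNA replication genes leaned the other way. All 29 had a positive difference, as did 10019 of all 19938 genes, and 11 had both pretreated arrays above both naive arrays. The median was 0.40, against 0.22 at 0 h in set 2, 0.41 at 0 h in set 1 and 0.58 at 6 h. Cyclin E2, Ccne2, had 0.85 ± 0.34, cyclin E1, Ccne1, 0.73 ± 0.25, and Uhrf1, which maintains DNA methylation, 0.58 ± 0.35. The 29 mitosis genes had a median of 0.04 at 3 h and all of their intervals lay within 1 log2 unit of 0. Their median was -0.07 at 0 h in set 2, 0.32 at 0 h in set 1 and 0.82 at 6 h. The 19 serine, one-carbon and Atf4 target genes had a median of 0.35, with 18 positive, and Mthfd2 had 0.62 ± 0.33.

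Immediate early genes went in both directions. Fos was at 8.35 and 8.35 in pretreated cells, against 7.67 and 6.74 in naive cells (1.15 ± 0.33), and the zinc finger factor Egr2 was at 7.98 and 7.54 in pretreated cells, against 9.58 and 8.44 in naive cells (-1.25 ± 0.43). Both are transcription factors induced early after stimulation. Among 16 genes of histone H3.3, its chaperones and H3K36 methyltransferases differences ran from -0.29 to 0.49. H3f3a, 1 of the genes that encode H3.3, was at 6.08 and 5.69 in pretreated cells, against 6.18 and 6.05 in naive cells, under the limit of 6.5 in both.

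**Figure D5:**
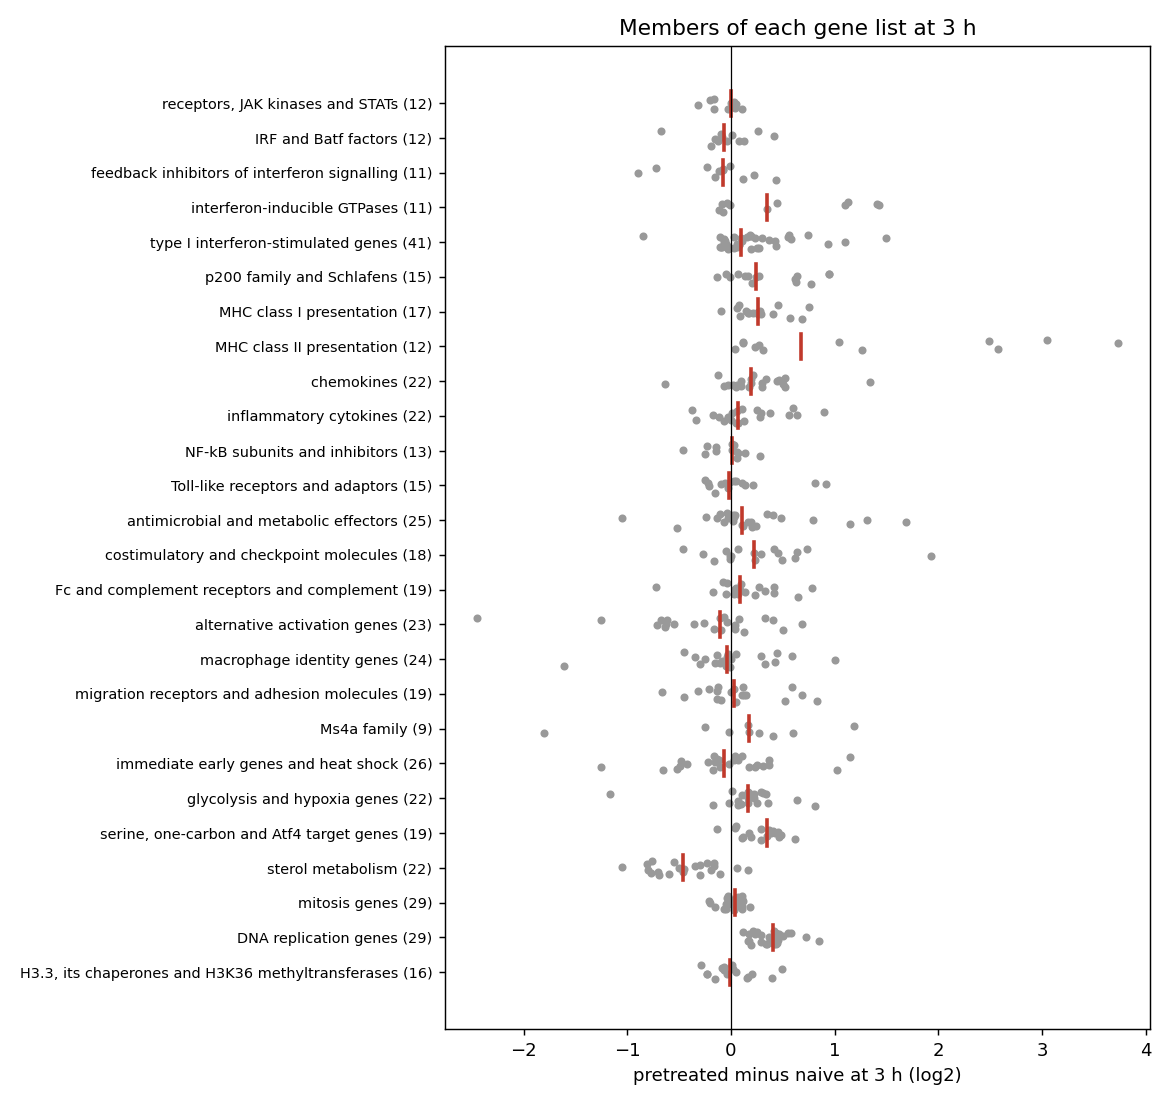
Difference of pretreated minus naive cells at 3 h (log2, horizontal axis) for the members of 26 gene lists (1 grey point per gene, number of measured members in parentheses, red line at the median). Most medians lie near 0; the highest are those of MHC class II presentation (0.68) and DNA replication (0.40) and the lowest is that of sterol metabolism (-0.46).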

How the data were processed

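Macrophage RNA, extracted with Trizol and biotin-labelled, was measured on 1-colour Affymetrix arrays of mouse genes, per the labels' protocols. The deposited values are log2 intensities of 35557 features. How the authors corrected, normalized and summarised the probes is not given in the sources used here. Column medians were 6.89 to 7.00 in array set 2 and 7.15 to 7.23 in set 1. Whether the sets were normalized separately was not tested, and every difference was taken within a set.

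Of the features 23410 are in the platform annotation, which can be old, and 21789 have 1 symbol, 1621 several and 12147 none. Features with several symbols were not used, so genes such as Gbp2, H2-K1, H2-D1 and H3f3b are not analysed here. For 999 genes with several features the brightest was taken, which gave 19938 genes. One limma fit (version 3.58.1, R 4.3.3) had a mean for each of 8 groups within array sets over 16 arrays, with 8 residual and 4.26 prior degrees of freedom. Benjamini-Hochberg adjustment ran over 19938 genes, and the threshold was an adjusted p of 0.05. Changes of a difference between times were contrasts in the same fit. An exact permutation test of 2 arrays against 2 cannot go below p = 0.333, so none is given. The model code was tested on simulated data. Precision is limited by the 2 arrays per group.

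The comparison, the 26 gene lists, the 9 marker lists (556 of 616 members of both measured) and the rule for named genes were chosen with earlier results of these data known. The rule named up to 20 genes of each sign past the threshold at 3 h whose groups did not overlap, per list the 5 members with the greatest absolute difference, the largest changes from 0 h and 6 h, and a fixed set of interferon genes. Genes outside it are named where a count is small or as chosen after their values were seen, as H2-DMa and the genes of the closing section were. Promoter windows and motif counts come from RefSeq tables of GRCm38.p6. Alternatives were array set 2 or the 4 arrays alone, an additive set term, the 4-array block as a term, all features or their mean, array weights, a filter at a mean of 6.5, a second quantile normalization, a trended and robust eBayes, a 2-fold limit and each array left out. The 4-array block was added after seeing the data for the comparisons other than that at 3 h. Figures were drawn with Python 3.11.15 and matplotlib 3.10.9.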

Additional observations from a re-analysis of the deposited data

Results flagged for a closer look

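For 16 genes the difference of pretreated minus naive cells passed the limma test of a change between 3 h and 0 h in array set 2, at an adjusted p under 0.05 over 19938 genes. The 3 h minus 0 h value was -6.07 for Cxcl9, -4.86 for BC023105, -4.48 for Iigp1, -3.42 for Gm4951 and -2.77 for Ifi205. It was -2.76 for Acod1, -2.61 for Zbp1, -2.30 for Gbp3, -2.29 for Gm12250 and -1.94 for Fcgr4. It was -1.82 for Ifit2, -1.65 for Irf1, -1.47 for Nlrc5, -1.47 for Tap1, -1.32 for Tapbpl and -1.09 for Psmb9. Of the 16, 8 passed whichever of the 8 arrays was omitted, and the other 8 missed the threshold for at least 1 omission, at adjusted p up to 0.31. The 8 that passed throughout were BC023105, Cxcl9, Gm12250, Gm4951, Ifi205, Iigp1, Tap1 and Zbp1. In naive cells at 0 h the levels of BC023105 (3.88 and 3.72), Cxcl9 and Iigp1 lay under the limit of 6.5, so the size of their change is uncertain.

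For Rasgrp1, a Ras guanine nucleotide exchange factor, the difference changed between 3 h and 6 h (3 h minus 6 h value 2.14 ± 0.25, adjusted p = 0.0263 in the limma fit), as the only gene (0.00502%). At 3 h it was at 7.81 and 7.48 in pretreated cells, against 7.63 and 7.54 in naive cells. At 6 h it was at 8.31 and 8.41 in pretreated cells, against 10.72 and 10.16 in naive cells. Set 2 alone holds 3 h arrays and set 1 alone holds 6 h arrays, and therefore time and set cannot be told apart here. No omission of 1 of the other 7 arrays left Rasgrp1 past the threshold (adjusted p up to 0.173), while omitting naive 6 h replicate 2 did.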

How the results depend on the processing

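The 3 genes called at 3 h were 1 with the 4 arrays at 3 h alone, 1 with array weights and 76 with the 4-array block (a replicate block read from the titles), which held all 3. With 1 array left out the count was 1 to 2. No other alternative moved it by over 1.5 times. Aif1 missed the threshold with set 2 alone (adjusted p = 0.0521), the 4 arrays alone (0.0901), the additive set term (0.114), array weights (0.0877) and quantile normalization (0.0916). H2-Q5 missed it with set 2 alone (0.164), the 4 arrays alone (0.35) and array weights (0.0877). The 16 changes from 0 h were 8 with set 2 alone and 31 with the block (8 to 14 with 1 array left out). The 1 change from 6 h was 50 with the block, 4 with quantile normalization, 4 with trend and robust (0 to 96 with 1 array left out, 96 without naive 6 h replicate 2). The 93 calls at 0 h in set 2 were 238 with the block (61 to 75 with 1 array left out). The 140 calls at 6 h were 29 with set 1 alone and 845 with the block (13 to 406 with 1 array left out). With 1 array left out the 3 h difference turned sign in 3 of the named genes: Cxcl9 ran from -0.0284 to 0.1325, Gbp3 from -0.3109 to 0.076 and Rasgrp1 from -0.1049 to 0.223. The causes were not tested. The block is read from title numbers, which do not state what the arrays of a block share, and in set 2 deviations of arrays of one block correlated at 0.082 to 0.644, with 0.589 between pretreated 3 h and naive 3 h arrays.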

Other observations

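Of the 66 genes that differed by at least 2-fold at 3 h, 41 were on the higher and 25 on the lower side in pretreated cells, and 36 lay outside the lists. The genes below were chosen from these 36 after their values were seen. None passed the limma test in the main fit, whose adjusted p-values are given beside the levels. The membrane proteins Tmem176a and Tmem176b, encoded by neighbouring genes, had differences of -1.62 and -1.43. Tmem176b was at 9.97 and 9.07 in pretreated cells, against 11.30 and 10.58 in naive cells, and its difference at 0 h in set 2 was -1.36. Fcrls, a scavenger receptor-like gene, was at 10.01 and 8.90 in pretreated cells, against 11.49 and 10.94 in naive cells (difference -1.77, adjusted p = 0.701), with -1.46 at 0 h. On the higher side Slamf9, of the SLAM receptor family, was at 10.93 and 11.39 in pretreated cells, against 9.38 and 9.94 in naive cells (1.498, adjusted p = 0.25). AW112010 was at 12.10 and 12.20 in pretreated cells, against 10.67 and 11.12 in naive cells (1.25, adjusted p = 0.292), and its 0 h difference was 3.05. Plau, the urokinase gene, had a difference of 1.22 at 3 h and 0.25 at 0 h. Its second naive array, at 8.82, stood apart from 10.16 on the first and from 10.72 and 10.70 in pretreated cells. With the block of arrays as a term, Slamf9 (adjusted p = 0.00275), Tmem176a (0.0196) and Tmem176b (0.0267) passed the limma test. Fcrls (0.0308) and AW112010 (0.0489) also passed with that term, while Plau did not (0.537).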
